A study of Mus musculus with 12 samples.

Results

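The genes of MHC class I antigen presentation were followed across the 12 RNA-seq libraries of the CML mouse model. The 10 genes were listed by name for their role in this pathway, by a rule that sets no measured value but with earlier results of these data known: B2m, H2-K1, H2-D1, H2-Q6, H2-T23, Tap1, Tap2, Psmb8, Psmb9 and Nlrc5. They are 10 of the 46103 genes in the files, and all 10 were among the 10072 genes that reached 1 RPKM (reads scaled for transcript length and library depth) in at least 3 libraries and were tested. Where a gene was listed more than once, under a running number, its entries were summed.

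Each library was made from 100 sorted BCR-ABL1+ CD27+ LSK cells (lineage-negative, Sca1-positive, c-Kit-positive) taken from bone marrow and spleen. DP cells (G0M+, vehicle), SP cells (G0M-, vehicle), IMDP cells (G0M+, imatinib) and IMSP cells (G0M-, imatinib) were each sequenced in 3 libraries. G0M is a fluorescent fusion of mVenus with p27K-, a p27 mutant without inhibitory activity, which marks cells in the G0 phase. In all 4 groups the leukemic cells came from 5FU-treated G0M mice, in which Vav1-Cre switches on the marker from a Rosa26 allele in blood cells. They had been transduced with a BCR-ABL1 retrovirus and transplanted into lethally irradiated wild-type C57BL/6 mice, so the groups share the oncogene, the marker allele and the irradiated host. Adult female mice were used. Imatinib, which blocks the kinase activity of BCR-ABL1, was given by oral gavage at 40 mg/kg once a day from day 10 after transplantation. The sources used here do not say whether the libraries of a group came from separate mice, so p-values measure only the spread between these libraries. The imatinib libraries carry the library numbers 1 to 6 and the vehicle libraries 7 to 12, so that treatment and library order cannot be told apart.

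MHC class I molecules show peptides from inside the cell to CD8+ T cells. A polymorphic or nonclassical heavy chain pairs with beta-2 microglobulin (B2m) in the endoplasmic reticulum. Peptides are cut by the proteasome, in which interferon can replace constitutive catalytic subunits by the immunoproteasome subunits Psmb8, Psmb9 and Psmb10, and are pumped into the endoplasmic reticulum by the Tap1-Tap2 transporter. The promoters of classical heavy chain genes are known to carry an interferon response element, an NF-kB site and the SXY module, on which RFX, CREB and NF-Y factors bring in the transactivator Nlrc5.

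In GRCm38, B2m lies on chromosome 2 (122147686 to 122153083) and Nlrc5 on chromosome 8 (94434356 to 94527272). The other 8 members lie in the H2 region of chromosome 17, where Psmb9 (34181987 to 34187764), Tap1 (34187553 to 34197225), Psmb8 (34197721 to 34201454) and Tap2 (34203527 to 34216321) stand in a row. H2-K1 lies at 33996017 to 34000347, H2-D1 at 35262730 to 35267499, H2-Q6 at 35424850 to 35430055 and H2-T23 at 36029773 to 36032855.

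The promoter stretches of the chain genes are shown because they differ in the elements through which the class I regulators act. All are RefSeq sequences of GRCm38.p6, written 5′ to 3′ on the strand of the gene, and the related H2-Q7 and H2-Q4 are given beside H2-Q6. Capitals mark matches, on either strand, to TTTCNNTT (core of an interferon response element), GGGNNTTCC (core of an NF-kB site), TGACG (core of the X2 box bound by CREB factors) or CCAAT (bound by NF-Y).
B2m (chr2:122147545-122147659, plus strand): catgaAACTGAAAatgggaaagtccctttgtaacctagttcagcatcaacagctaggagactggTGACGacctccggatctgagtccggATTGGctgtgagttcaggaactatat
H2-K1 (chr17:34000349-34000463, minus strand): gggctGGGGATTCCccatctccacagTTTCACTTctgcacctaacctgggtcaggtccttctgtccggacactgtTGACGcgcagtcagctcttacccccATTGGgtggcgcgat
H2-D1 (chr17:35262918-35263032, plus strand): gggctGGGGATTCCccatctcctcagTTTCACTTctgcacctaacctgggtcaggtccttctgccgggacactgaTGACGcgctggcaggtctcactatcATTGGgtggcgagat
H2-Q6 (chr17:35424672-35424786, plus strand): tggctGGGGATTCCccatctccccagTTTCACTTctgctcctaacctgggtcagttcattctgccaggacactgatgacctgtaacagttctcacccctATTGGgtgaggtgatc
H2-Q7 (chr17:35439017-35439131, plus strand): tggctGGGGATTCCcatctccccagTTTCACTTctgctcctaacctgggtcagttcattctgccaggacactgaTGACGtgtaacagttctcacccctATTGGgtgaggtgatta
H2-Q4 (chr17:35379439-35379553, plus strand): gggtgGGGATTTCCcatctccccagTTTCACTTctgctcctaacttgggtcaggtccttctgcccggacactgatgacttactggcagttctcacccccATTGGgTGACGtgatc
H2-T23 (chr17:36032716-36032830, minus strand): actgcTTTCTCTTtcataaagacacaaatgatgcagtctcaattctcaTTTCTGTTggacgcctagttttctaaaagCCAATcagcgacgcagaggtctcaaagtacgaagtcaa

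H2-K1 and H2-D1 held all 4 elements in the same order. H2-Q6 held the NF-kB core, the interferon core and the CCAAT box but not TGACG, which was present in H2-Q7 and, after the CCAAT box, in H2-Q4. B2m held no match to GGGNNTTCC, and H2-T23 held a match to neither GGGNNTTCC nor TGACG. A fixed pattern of this kind misses NF-kB sites of another spacing or sequence. Promoters of 300 bases were given for 8 members (not for Tap2 and Nlrc5), and TTTCNNTT was found in 5 of the 8, against 23.9% of 32851 promoters. GGGNNTTCC was in 3 of the 8 against 5.82%, TGACG in 5 against 20.8%, and CCAAT in 7 against 37.4%. Tap1 and Psmb9 are read in opposite directions, and 275 bases of their promoters are the same stretch. A match is a description of these letters and not a binding site, and the lack of a match does not show that a site is absent.

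The libraries rested on 11.37 to 20.57 M reads, and 1 read on a transcript of 1 kb equals 0.0486 to 0.088 RPKM. Members other than H2-Q6 rested on 211 to 10486 reads in every library. PCR copies were not marked, so these reads do not give the number of molecules sampled. Differences were tested with limma on log2(RPKM + 0.1), and a gene was called at a Benjamini-Hochberg adjusted p under 0.05 over all 10072 genes. Of all genes, 2.26% were called between DP and SP, 25.6% between IMDP and IMSP, 0.367% between IMDP and DP and 0% between IMSP and SP. When G0M+ was compared with G0M- cells over both treatments 26.3% were called, and for the interaction of population and treatment 0%. The library IMDP 1 stood apart from the other IMDP libraries in its markers of other cells, with summed erythroid markers of 363 RPKM against 2.71 and 0.106 and summed mast cell markers of 108 RPKM against 6.4 and 8.88. The unadjusted p was under 0.05 for 845 genes in IMSP against SP and for 937 in the interaction. The median of all genes was itself shifted by -0.25 on the log2 scale in IMDP against IMSP, by -0.17 in IMDP against DP and by -0.13 in G0M+ against G0M-, so that a small fall of a gene in these comparisons may be no larger than that of the median gene. With every library scaled to the same median, the calls in IMDP against IMSP were 647 higher of 1587, against 239 of 2581 without this scaling, in G0M+ against G0M- cells 1131 of 2379 against 536 of 2648, and in DP against SP 53 of 276 against 29 of 228.

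Against this background, 1 of the 10 members was called: H2-Q6 was higher in IMDP than in IMSP cells. None was called in DP against SP, IMDP against DP, IMSP against SP or the interaction, and at an unadjusted p under 0.05 there were 0, 3, 3 and 0 members in these comparisons, against 13.2%, 20.5%, 8.39% and 9.3% of all genes. The members did not move as a block. The heavy chain H2-T23 and the transactivator Nlrc5 lay higher in G0M+ cells, the immunoproteasome subunits Psmb8 and Psmb9 lay lower, and B2m, H2-K1 and H2-D1 lay close to 0, although none of these differences passed in the fit of 4 group means. The median log2 fold change of the members was 0.11 in DP against SP (-0.02 over all genes), -0.08 in IMDP against IMSP (-0.25), -0.25 in IMDP against DP (-0.17) and 0.04 in IMSP against SP (0.08).

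The neighbouring library numbers bear on these values. Numbers 1 and 2, 3 and 4, and so on each hold 1 G0M+ and 1 G0M- library of the same treatment, and across all genes the libraries of a pair deviated together from their group means, with a correlation of 0.495 to 0.519 in the 3 vehicle pairs and 0.429 to 0.655 in the 3 imatinib pairs. What the neighbouring numbers share is not stated in the sources used here. With the pairs as a block, 7 members were called in G0M+ against G0M- cells over both treatments (all genes, 46.9%), 6 in IMDP against IMSP (44.1%) and 2 in DP against SP (9.73%). For the 7 members called with the block, blocked values stand below beside the unblocked ones. B2m, H2-K1 and H2-D1 were not called with it in any comparison. The share of all genes with the same direction in all 6 pairs was not counted. Counts of pairs below therefore have no background share beside them.

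**Figure D1:**
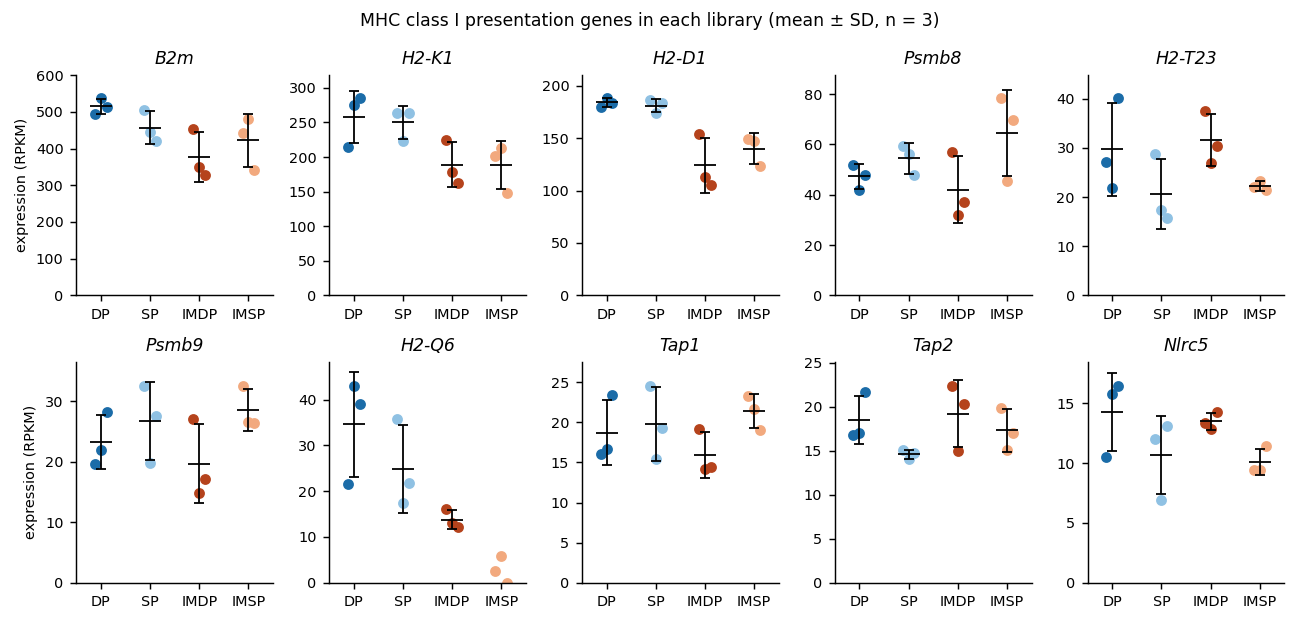
Expression in RPKM (y axis, from 0) of each member in the 3 libraries of DP, SP, IMDP and IMSP cells. Points are libraries and black bars are the mean ± SD (n = 3), left out for H2-Q6 in IMSP cells, where 1 library is at 0. B2m lay between 327 and 537 RPKM and Nlrc5 between 6.93 and 16.5 RPKM. H2-Q6 was lowest in the IMSP libraries.

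Ordered by the mean over the 12 libraries, B2m was highest at 443 RPKM, followed by H2-K1 at 221 RPKM and H2-D1 at 157 RPKM. B2m lay above H2-K1 in range, since its lowest library had 327 RPKM and the highest library of H2-K1 had 285 RPKM. H2-K1 (from 148 RPKM) and H2-D1 (up to 188 RPKM) overlapped in range, although H2-K1 was the higher in each of the 12 libraries. Psmb8 followed at 52.1 RPKM and did not reach the lowest H2-D1 library (105 RPKM). H2-T23 (26 RPKM), Psmb9 (24.6 RPKM), H2-Q6 (19 RPKM), Tap1 (18.9 RPKM), Tap2 (17.4 RPKM) and Nlrc5 (12.1 RPKM) came next, and each overlapped its neighbour in this order, as H2-T23 did Psmb8. The classical chains and their light chain were thus expressed at several times the level of the transporter and the transactivator in every group.

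B2m, the invariant light chain, was at 495, 537 and 513 RPKM in DP cells (515 ± 21.1, SD, n = 3) and at 506, 444 and 420 RPKM in SP cells (457 ± 44.4). In IMDP cells it was at 454, 351 and 327 RPKM (377 ± 67.2), and in IMSP cells at 442, 481 and 342 RPKM (422 ± 72). The 3 IMDP libraries lay below all 3 DP libraries, whereas DP overlapped SP, SP overlapped IMSP and IMDP overlapped IMSP. The log2 fold change was 0.01 (SE 0.11, adjusted p = 0.961) in G0M+ against G0M- cells, with a 95% interval from -0.23 to 0.25. It was -0.46 (SE 0.16, adjusted p = 0.143) in IMDP against DP and -0.12 (SE 0.16, adjusted p = 0.902) in IMSP against SP.

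H2-K1 and H2-D1 encode the classical heavy chains of this strain. H2-K1 was at 215, 275 and 285 RPKM in DP, 264, 223 and 264 in SP, 225, 178 and 163 in IMDP and 202, 213 and 148 in IMSP cells. H2-D1 was at 180, 188 and 183 RPKM in DP, 186, 174 and 183 in SP, 154, 113 and 105 in IMDP and 149, 147 and 123 in IMSP cells. Both genes thus had overlapping DP and SP libraries and lower means in both imatinib groups. For H2-D1 no imatinib library reached any vehicle library, and for H2-K1 this held in IMSP against SP.

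Between the populations the intervals for these chains were narrow around 0. In G0M+ against G0M- cells the log2 fold change was 0.02 for H2-K1 (SE 0.12, adjusted p = 0.899, 95% interval -0.25 to 0.30) and -0.08 for H2-D1 (SE 0.10, adjusted p = 0.559, 95% interval -0.30 to 0.14). In IMDP against DP cells it was -0.59 for H2-D1 (SE 0.14, adjusted p = 0.0793) and -0.46 for H2-K1 (SE 0.18, adjusted p = 0.183). In IMSP against SP cells it was -0.38 for H2-D1 (SE 0.14, adjusted p = 0.516) and -0.43 for H2-K1 (SE 0.18, adjusted p = 0.537). Without the library IMDP 1, the highest of its group for both chains, H2-D1 was called in IMDP against DP (-0.75, adjusted p = 0.022). The share of genes whose libraries did not overlap was 23.6% in IMDP against DP and 13.8% in IMSP against SP. Of the members, 3 did not overlap in the former (B2m, H2-D1 and H2-Q6, all lower in IMDP) and 4 in the latter (H2-K1, H2-D1 and H2-Q6 lower and Tap2 higher in IMSP).

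**Figure D2:**
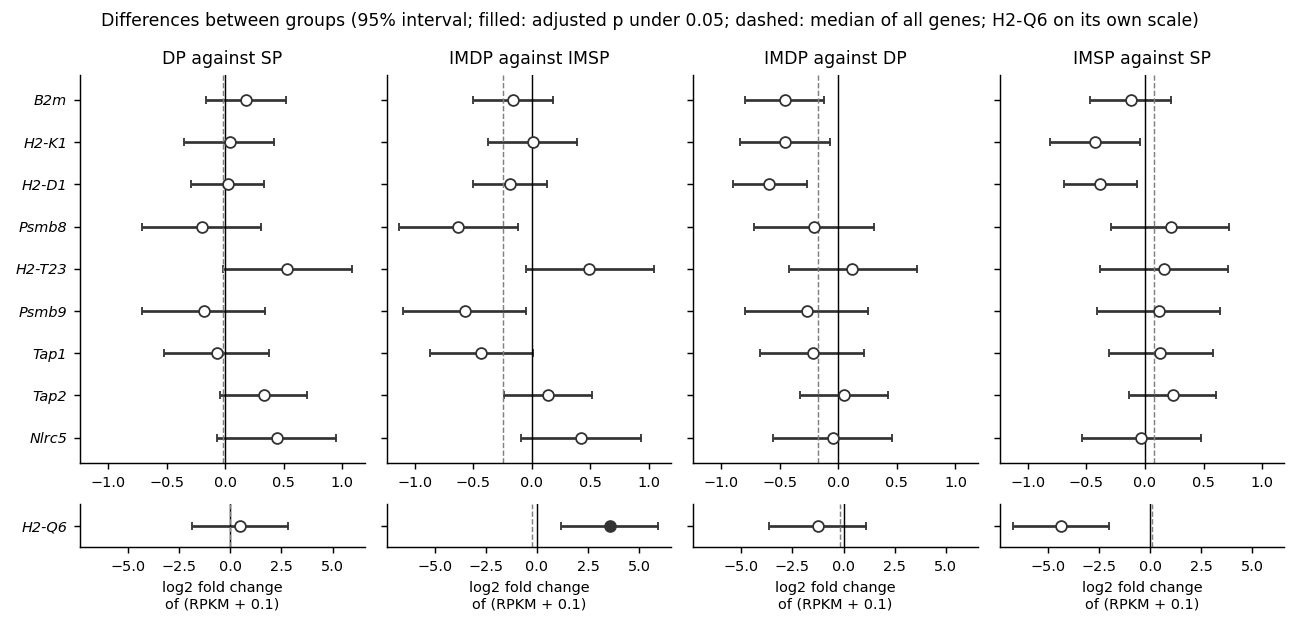
Log2 fold change of (RPKM + 0.1) of each member (x axis) in the 4 pairwise comparisons, from the fit without a block. Points are estimates, whiskers 95% intervals, the filled point a gene called at an adjusted p under 0.05, and dashed lines the median of all genes tested. H2-Q6 has an x axis of its own in the lower row. H2-Q6 in IMDP against IMSP is called, at 3.56.

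H2-Q6 is a nonclassical heavy chain gene of the Qa-2 region. It was at 21.6, 43.1 and 39.1 RPKM in DP, 35.8, 17.4 and 21.7 in SP, 16.2, 13 and 12.2 in IMDP and 2.55, 5.92 and 0 in IMSP cells. The IMDP libraries lay above all IMSP libraries and below all DP libraries. The IMSP values stood on 44, 66 and 0 reads, and a count of 0 allowed up to 0.227 RPKM in that library (3 reads, counting error only). The log2 fold change in IMDP against IMSP was 3.56 (SE 1.09, adjusted p = 0.0331, 95% interval 1.20 to 5.93), and 1.79 (adjusted p = 0.0146) without the library at 0. With a pseudocount of 1 in place of 0.1 it was 2.34 (adjusted p = 0.0114). It was -4.35 (SE 1.09, adjusted p = 0.406) in IMSP against SP and 3.09 (SE 1.53, adjusted p = 0.543) for the interaction. With a pseudocount of 1 these were -3.09 and 1.88. In G0M+ against G0M- cells the log2 fold change was 2.02 (SE 0.77, adjusted p = 0.0692). With the library-number block H2-Q6 was called in this comparison (adjusted p = 0.0192) and in IMDP against IMSP (adjusted p = 0.00769). In the fit without a block, the call in IMDP against IMSP was lost without IMDP 1, IMDP 2, IMDP 3 or IMSP 1. The adjusted p was then 0.055 to 0.087 and the log2 fold change 3.44 to 4.15.

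H2-Q6 has close relatives, and among them the difference was not shared. H2-Q8 moved the opposite way and was lower in G0M+ cells (log2 fold change -1.09, SE 0.33, adjusted p = 0.0309), a call that was lost with every library scaled to the same median, while H2-Q7 (-0.16, SE 0.35) and H2-Q9 (0.00, SE 0.32) were not called. H2-Q8 was at 6.5, 10.4 and 8.42 RPKM in DP, 10.3, 10.9 and 35.8 in SP, 9.26, 9.77 and 4.73 in IMDP and 18.6, 26.5 and 11.7 in IMSP cells. In each of the 6 library-number pairs H2-Q6 was higher and H2-Q8 lower in the G0M+ library. The share of the summed RPKM of H2-Q6 and H2-Q8 that was listed as H2-Q6 was 76.9 to 82.3% in DP, 37.7 to 77.7% in SP, 57.1 to 72.1% in IMDP and 0 to 18.2% in IMSP cells.

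The sum of these genes did not differ in the way H2-Q6 did. With H2-Q6 and H2-Q8 summed, a choice made after seeing the data, the log2 fold change in IMDP against IMSP was 0.09 (SE 0.37, adjusted p = 0.87, 95% interval -0.71 to 0.90), and with H2-Q6 to H2-Q9 summed it was 0.00 (SE 0.38, adjusted p = 0.996). The sum of H2-Q6 to H2-Q9 was at 76.8 to 155 RPKM in DP, 95.5 to 171 in SP, 52.2 to 73.1 in IMDP and 34.4 to 106 in IMSP cells. Of the 50-base windows in GENCODE M21 transcripts of H2-Q6, 13.9% also occur in those of H2-Q7, and 17% of those of H2-Q7 occur in H2-Q6. No such share was computed for H2-Q8 and H2-Q9, which GENCODE M21 does not list under these names. A sum with a gene already seen to move the opposite way brings the difference nearer to 0 by construction, so it cannot tell why. How the authors' mapping divided reads among these genes was not tested, and the values of H2-Q6 and its relatives as single genes are uncertain.

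**Figure D3:**
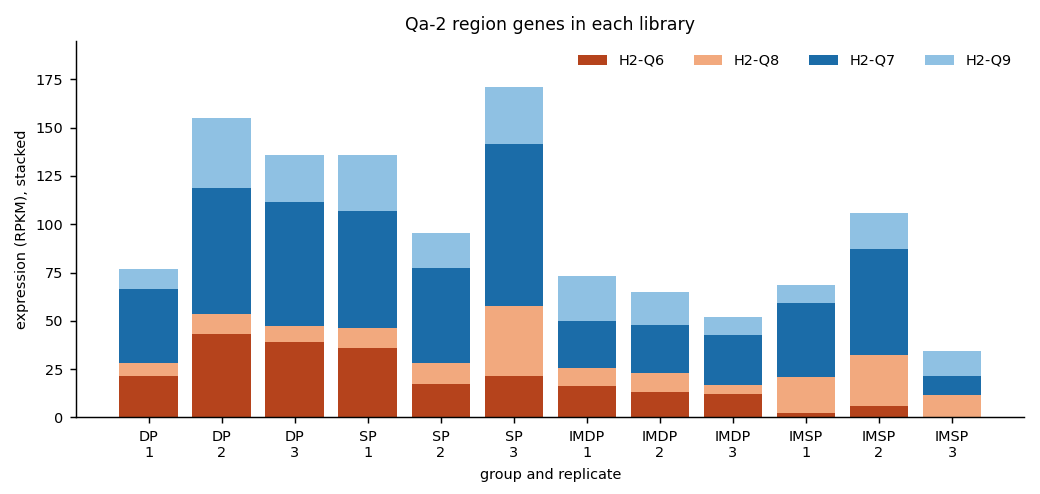
Expression in RPKM (y axis, stacked from 0) of H2-Q6, H2-Q8, H2-Q7 and H2-Q9 in each of the 12 libraries (x axis). H2-Q6 fills 0 to 5.92 RPKM of the IMSP bars and 12.2 to 16.2 RPKM of the IMDP bars, while H2-Q8 fills 11.7 to 26.5 RPKM and 4.73 to 9.77 RPKM.

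H2-T23 encodes Qa-1, which presents leader peptides of other class I chains to NKG2 receptors. It was at 27.2, 21.8 and 40.1 RPKM in DP, 28.8, 17.3 and 15.7 in SP, 37.5, 27 and 30.3 in IMDP and 22, 23.3 and 21.4 in IMSP cells. DP and SP overlapped, whereas all IMDP libraries lay above all IMSP libraries. In 6 of 6 library-number pairs the G0M+ member was the higher. The log2 fold change in G0M+ against G0M- cells was 0.51 (SE 0.18, adjusted p = 0.0515, 95% interval 0.12 to 0.90), or 1.43-fold, and with the block adjusted p = 0.00142. With the block it was called in each treatment, at 0.53 in DP against SP (adjusted p = 0.0269) and 0.49 in IMDP against IMSP (adjusted p = 0.00939). The estimates for treatment were 0.12 in IMDP against DP (95% interval -0.42 to 0.67) and 0.16 in IMSP against SP (95% interval -0.38 to 0.71), intervals that include a difference as large as that between the populations.

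Nlrc5, the class I transactivator, was at 10.5, 15.8 and 16.5 RPKM in DP, 12, 6.93 and 13.1 in SP, 13.4, 12.9 and 14.3 in IMDP and 9.47, 9.45 and 11.4 in IMSP cells. It followed the pattern of H2-T23, with all IMDP above all IMSP libraries and the G0M+ library higher in 6 of 6 pairs. The log2 fold change in G0M+ against G0M- cells was 0.43 (SE 0.17, adjusted p = 0.0705, 95% interval 0.07 to 0.79), or 1.35-fold, and with the block adjusted p = 0.00206. The share of all genes whose libraries did not overlap was 39.0% in IMDP against IMSP and 22.4% in DP against SP. The members without overlap were H2-Q6, H2-T23 and Nlrc5 in the former and Tap2 in the latter, all higher in the G0M+ cells.

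Psmb8, the immunoproteasome subunit that takes the place of Psmb5, was at 51.9, 42.1 and 48 RPKM in DP, 59.5, 56.2 and 47.7 in SP, 57, 31.9 and 37.3 in IMDP and 78.4, 45.6 and 69.9 in IMSP cells. The groups overlapped, but inside the library-number pairs G0M+ cells had the lower value in 6 of 6. The log2 fold change was -0.41 (SE 0.16, adjusted p = 0.0799, 95% interval -0.77 to -0.05) in G0M+ against G0M- cells and -0.63 (SE 0.23, adjusted p = 0.0669) in IMDP against IMSP. With the block both were called, with adjusted p = 0.00252 and adjusted p = 0.00203. The replicate numbers of the sample titles join the same IMDP and IMSP libraries, and with these as the block Psmb8 was also called in IMDP against IMSP (adjusted p = 0.0232). Without IMDP 1 Psmb8 was called lower in IMDP against IMSP (-0.87, adjusted p = 0.0137) and in G0M+ against G0M- cells (-0.53, adjusted p = 0.0191).

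Psmb9, which takes the place of Psmb6, was at 19.7, 22 and 28.3 RPKM in DP, 32.6, 19.8 and 27.6 in SP, 27.1, 14.9 and 17.2 in IMDP and 32.5, 26.6 and 26.4 in IMSP cells. The G0M+ library was the lower in 6 of 6 pairs, with log2 differences from -0.83 to -0.01. The log2 fold change was -0.38 (SE 0.17, adjusted p = 0.117) in G0M+ against G0M- cells and -0.57 (SE 0.24, adjusted p = 0.099) in IMDP against IMSP, and with the block adjusted p = 0.00794 and adjusted p = 0.00605. Without IMDP 1 these were -0.50 (adjusted p = 0.027) and -0.82 (adjusted p = 0.0184). The other immunoproteasome subunit, Psmb10, was at 6.03 to 10.4 RPKM over the 12 libraries, with a log2 fold change of -0.12 (SE 0.13, adjusted p = 0.535).

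Tap1, which pumps peptides together with Tap2, was at 16, 16.7 and 23.4 RPKM in DP, 24.6, 15.4 and 19.3 in SP, 19.2, 14.2 and 14.4 in IMDP and 23.3, 21.7 and 19.1 in IMSP cells. Its only overlap between IMDP and IMSP was between IMDP 1 and IMSP 3. Its log2 fold change in IMDP against IMSP was -0.43 (SE 0.20, adjusted p = 0.135), and with the block it was called (adjusted p = 0.011). Tap2 was at 16.8, 17 and 21.7 RPKM in DP, 15.1, 14 and 14.7 in SP, 22.4, 15 and 20.3 in IMDP and 19.9, 15.1 and 17 in IMSP cells. All DP libraries lay above all SP libraries, and the log2 fold change was 0.33 (SE 0.17, adjusted p = 0.438) in DP against SP and 0.23 (SE 0.12, adjusted p = 0.164) in G0M+ against G0M- cells. With the block the G0M+ against G0M- difference was called for both partners in opposite directions, lower for Tap1 (-0.25, adjusted p = 0.0235) and higher for Tap2 (0.23, adjusted p = 0.033).

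Scaling every library to the same median moves all members of a comparison by nearly the same amount, so that it alters signs near 0 and calls more than the differences between members. With this scaling H2-T23 (0.67, adjusted p = 0.0154), Nlrc5 (0.59, adjusted p = 0.0404) and Tap2 (0.39, adjusted p = 0.0298) were called higher in G0M+ cells and none lower. The log2 fold changes of Psmb8 and Psmb9 in G0M+ against G0M- cells became -0.26 (adjusted p = 0.217) and -0.22 (adjusted p = 0.31).

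The constitutive proteasome was examined beside its immunoproteasome counterparts. Of the 14 core subunit genes, 13 were called lower in IMDP than in IMSP cells, with a list median of -0.72 against -0.25 over all genes, and 12 were called lower in G0M+ than in G0M- cells. All 14 estimates were below 0 in both comparisons. Psmb7 fell most clearly, from 46.5, 41.1 and 40.3 RPKM in IMSP to 24.2, 23.5 and 21.2 RPKM in IMDP cells (log2 fold change -0.89, SE 0.13, adjusted p = 0.00124). In DP against SP none of the 14 was called, and all 14 estimates were below 0 (median -0.23). With every library scaled to the same median, 6 of the 14 were called lower in IMDP against IMSP and 8 in G0M+ against G0M- cells.

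Within a library the ratio of each immunoproteasome subunit to its counterpart was therefore compared. The log2 ratio of Psmb8 to Psmb5 was higher by 0.25 in G0M+ cells (exact permutation test within treatments, two-sided, p = 0.2, adjusted p = 0.3 over 3 ratios), and that of Psmb9 to Psmb6 by 0.16 (exact permutation p = 0.445). The ratio of Psmb10 to Psmb7 was higher by 0.45 (exact permutation p = 0.02, adjusted p = 0.06). The smallest p that this test allowed was 0.005. Within the library-number pairs the ratio of Psmb10 to Psmb7 was higher in the G0M+ library in 6 of 6, that of Psmb8 to Psmb5 in 5 and that of Psmb9 to Psmb6 in 4. An exact permutation test that exchanges the libraries of a pair, added after seeing the data, gave p = 0.0312 for Psmb10 to Psmb7, the smallest it allows (adjusted p = 0.0938), p = 0.156 for Psmb8 to Psmb5 and p = 0.25 for Psmb9 to Psmb6. The lower RPKM of Psmb8 and Psmb9 in G0M+ cells thus stood beside lower RPKM of the subunits that they replace, and their share of the pair was not shown to be lower.

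The genes that load and trim class I peptides included several chaperones that were lower in G0M+ cells. Of 10 tested, 5 were called lower in IMDP against IMSP and the same 5 in G0M+ against G0M- cells: Hspa5, Calr, Pdia3, Uggt1 and Canx. The endoplasmic reticulum chaperone Hspa5 (-0.79, SE 0.15, adjusted p = 0.00505) and calreticulin, Calr (-1.09, SE 0.26, adjusted p = 0.0124) had the smallest adjusted p. These 5 fold glycoproteins in general, not class I chains alone. Hspa5 was also called lower in IMDP against DP. Tapasin, Tapbp, which ties the heavy chain to the transporter, was at 15.5 to 22 RPKM in the 12 libraries and its log2 fold change in G0M+ against G0M- cells was 0.17 (SE 0.10, adjusted p = 0.214). Of 5 partners of the immunoproteasome, Psme2, Psme3 and Pomp were called lower in IMDP against IMSP and Psme3 in G0M+ against G0M- cells. With every library scaled to the same median, 2 of the 10 loading genes and none of the 5 partners were called lower in IMDP against IMSP. In G0M+ against G0M- cells this scaling left 3 loading genes called lower, 1 higher and no partner. With the library-number block 3 loading genes were called lower in DP against SP and 3 partners in G0M+ against G0M- cells.

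**Figure D4:**
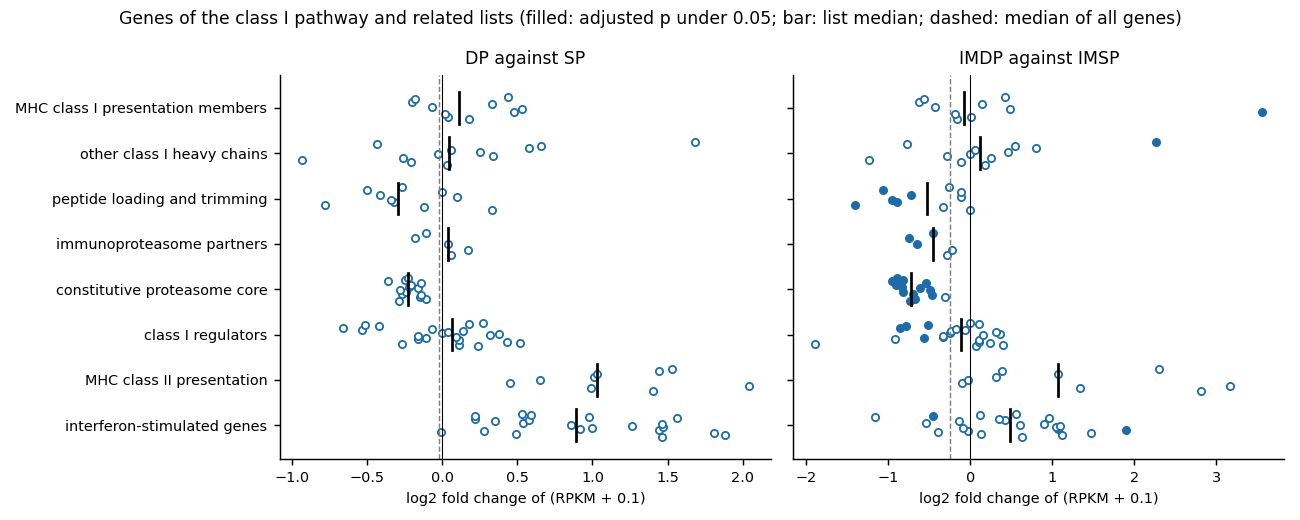
Log2 fold change of (RPKM + 0.1) (x axis) of the genes tested in each list, in DP against SP and IMDP against IMSP. Circles are genes, filled when called at an adjusted p under 0.05, black bars list medians and dashed lines the median of all genes. In IMDP against IMSP, 13 of the 14 constitutive proteasome genes are filled and below 0, and 1 of the 10 members is filled.

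Of 12 further class I heavy chain genes tested, Fcgrt, a receptor for IgG and albumin, and Cd1d1, which presents lipids, were called higher in G0M+ cells (log2 fold change 1.98, SE 0.43, adjusted p = 0.00815, and 0.69, SE 0.20, adjusted p = 0.0283), and H2-Q8 was called lower. With every library scaled to the same median 2 of the 12 were called higher and none lower, and with the library-number block 4 higher and 2 lower. Fcgrt was low throughout, at 0.0641 to 2.88 RPKM. It reached 1 RPKM only in G0M+ libraries and so passed the filter through the group where it was higher, which makes its call no independent support. Of 22 class I regulators tested, none was called higher, and Nfyb (-0.76, SE 0.14, adjusted p = 0.00322) and Nfyc (-0.60, SE 0.14, adjusted p = 0.0103), subunits of the factor that binds CCAAT, and Creb1 (-0.51, SE 0.12, adjusted p = 0.0111) were called lower in G0M+ cells. With every library scaled to the same median, 3 regulators were called higher and 3 lower in this comparison, and with the library-number block 4 higher and 7 lower. In IMDP against IMSP the interferon gamma receptor chain Ifngr2 was called lower too.

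Of 22 interferon-stimulated genes tested, 7 were called higher and none lower in G0M+ cells, and 18 of the 22 estimates were above 0. Oas2, an antiviral sensor, was at 3.66, 4.86 and 8.33 RPKM in DP, 2.84, 1.13 and 2.06 in SP, 3.29, 8.02 and 4.07 in IMDP and 0.581, 2.39 and 1.19 in IMSP cells (log2 fold change 1.67, SE 0.35, adjusted p = 0.00657). Oas3, Ifi44, Irf7 and Parp14 were among the others called. Ifit1, also called, reached 1 RPKM only in G0M+ libraries and so passed the filter through the group where it was higher. The list median was 0.52 against -0.13 over all genes, whereas that of the 10 class I members was 0.02. In DP against SP none was called, with 21 of 22 estimates above 0, and 9 were called higher with the library-number block. In IMDP against IMSP Oas2 and Oas3 were called higher and Bst2, an antiviral membrane protein, lower, and with every library scaled to the same median 4 were called higher and none lower. In the MHC class II list 3 of 9 tested, H2-Oa (1.05, SE 0.29, adjusted p = 0.0208), H2-Eb1 (2.61, SE 0.80, adjusted p = 0.0329) and the invariant chain Cd74 (1.92, SE 0.59, adjusted p = 0.0329), were called higher in G0M+ cells. None of the 9 was called in IMDP against IMSP. Among the IMDP libraries Cd74 (25.4, 7.08 and 7.47 RPKM) and H2-Eb1 were highest in IMDP 1, and H2-Oa was not. With the library-number block 13 interferon-stimulated and 6 class II genes were called higher in G0M+ against G0M- cells.

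Markers of some other cell types moved with the populations. The summed RPKM of 5 macrophage markers was 1.39 to 9.95 in DP, 0.27 to 1.64 in SP, 5.32 to 8.65 in IMDP and 0.161 to 1.75 in IMSP cells, and 3 of 5 reached the filter and were all called higher in G0M+ cells. The summed RPKM of 5 mast cell markers was 15.2 to 133 in DP, 2.8 to 5.57 in SP, 6.4 to 108 in IMDP and 2.34 to 6.82 in IMSP cells, and 2 of the 3 tested were called higher. C1qc and Cma1, among those called, were at 0 in every SP and IMSP library and passed the filter only through G0M+ libraries. The filter thus favoured their calls as higher, and these are no independent support. Among the neutrophil markers, Elane and S100a8 were tested and had lower means in G0M+ cells in both treatments, and 0 of 2 were called. The sum, mostly Elane, was 6.92 to 289 RPKM in DP, 42.4 to 617 in SP, 9.38 to 36.8 in IMDP and 58 to 343 in IMSP cells. S100a9 and Ngp did not pass the filter, and each changed direction between the treatments. With the library-number block, 2 neutrophil markers were called lower in G0M+ cells. This block gave 3 macrophage, 3 mast cell and 3 erythroid markers higher. The B cell markers summed to at most 0.175 RPKM, and Ms4a1 was at 0 in all libraries. The T and NK cell markers, nearly all Nkg7, summed to 81.9 to 172 RPKM in DP and 91.2 to 265 in SP cells. In IMDP and IMSP cells this sum was 26.5 to 81.8 and 60.4 to 165 RPKM. Dendritic cell markers summed to 2.1 to 2.19 RPKM in DP, 0.977 to 1.36 in SP, 1.27 to 10 in IMDP and 2.02 to 9.09 in IMSP cells. Neither list had a gene called, and with the library-number block Nkg7 was called lower in G0M+ cells. The summed erythroid markers were at 7.74 to 44.8 RPKM in DP, 0.522 to 7.88 in SP and 0 to 29.2 in IMSP cells, and at 363, 2.71 and 0.106 RPKM in the 3 IMDP libraries. Of the LSK markers all 3 were tested, and the gene of Sca1, Ly6a, was called higher in G0M+ cells (1.42, SE 0.28, adjusted p = 0.00544). The part of the other cells in the class I, class II and interferon values was not tested, and fewer cells of a type and less RNA per cell cannot be told apart in these libraries.

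The closest pair among the members was Tap1 and Psmb9, with a Pearson correlation of log2 levels over the 12 libraries of 0.95 (0.93 with the group means removed). Over the same libraries B2m and H2-D1 had 0.89, H2-K1 and H2-D1 0.90 and B2m and H2-K1 0.86, and with the group means removed these were 0.89, 0.82 and 0.83. H2-K1 and H2-Q6 had 0.75, Psmb8 and Psmb9 0.74, and H2-T23 and Tap2 0.71. The other pairs ran from -0.48 (H2-Q6 and Psmb8) to 0.60 (Tap1 and Psmb8). The libraries share the depth and the normalization of the RPKM scale, so these values are descriptions. The mean of the centred log2 levels of the 10 members ran from 0.47 in DP 3 to -0.76 in IMSP 3, the library in which H2-Q6 was at 0. The non-member genes most alike to this mean over the 12 libraries were Saraf (0.92), Ddhd1 (0.92), Lat (0.89), Wdr45 (0.88) and Tcf25 (0.88).

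The numbered copies behind the sums were also read. The 4 copies of H2-D1 held 24.9 to 25.2% of the gene's RPKM each, and those of H2-Q6 24 to 26.2%. H2-K1 was carried by the copies H2-K1_1 (53%) and H2-K1_2 (46.9%), and H2-T23_1 held 98.1% of H2-T23. For Tap1, Tap2, Psmb8 and Psmb9 nearly all of the RPKM lay on 2 of the 4 copies. B2m and Nlrc5 were listed once.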

How the data were processed

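RNA of 100 sorted cells per library was reverse transcribed with not-so-random primers, amplified with a Nextera XT kit and sequenced. The authors mapped reads to GRCm38/mm10 with CLC Genomics Workbench by the methods (HISAT2 with featureCounts by the reporting summary) and deposited RPKM per feature. Whether a further normalization is part of the deposited RPKM, and whether strand was used, is not given in the sources used here. RPKM is no count, so no count model was the main test. All RPKM values above 0 (17735 of 48737 features) lay on whole-number steps of reads (tolerance 0.02), and the reads behind them gave depths of 11.37 to 20.57 M, of which 25.9 to 37.1% fell on listed features. PCR copies were not marked.

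Numbered copies were summed, genes that reached 1 RPKM in 3 or more libraries were kept, and log2(RPKM + 0.1) was fitted with limma 3.58.1 (R 4.3.3), with 4 group means and a trended moderated variance, and Benjamini-Hochberg adjustment over 10072 genes. The pseudocount understates fold changes of low genes. Same-numbered DP and SP libraries did not deviate together (correlation -0.298 to -0.0976), while same-numbered IMDP and IMSP libraries did (0.429 to 0.655). The pairing by library number comes from the sample descriptions. Alternatives changed the filter, pseudocount, groups in the fit, blocks, scaling, copies, model (limma-voom on the recovered reads) and libraries. Tables and figures used Python 3.11.15. The fit was tested on simulated data.

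The members and lists were chosen with earlier results of these data known. All members are named; of other lists, the counts called and at most 5 genes with the smallest adjusted p in G0M+ against G0M- cells, and the 5 genes most correlated with the members. Fcgrt, Tapbp, Psmb10, H2-Q7, H2-Q9, H2-Q4, Ifngr2, Bst2, Psme2, Pomp and the counterparts Psmb5 and Psmb6 were named for their relation to members or for small counts, after their values were seen.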

Additional observations from a re-analysis of the deposited data

How the results depend on the processing

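The number of members called in IMDP against IMSP was 1 (H2-Q6). It was 0 without a filter on low values, 0 with only the compared groups in the fit, 0 with H2-Q6 and H2-Q8 summed, 0 with H2-Q6 to H2-Q9 summed, 2 with the replicate block, 6 with the library-number block and 2 with libraries scaled to the same median. In G0M+ against G0M- cells it was 0, and 1 with a pseudocount of 1, 2 with the replicate block, 7 with the library-number block, 3 with libraries scaled to the same median, 2 with the copy of highest mean in place of the sum, and 1 with limma-voom. In DP against SP it was 0, and 2 with the library-number block. Leaving out a library gave 0 to 3 members in IMDP against IMSP (3 without IMDP 1: H2-D1, Psmb8 and Psmb9), 0 to 2 in G0M+ against G0M- cells (Psmb8 and Psmb9 without IMDP 1, H2-Q6 and Psmb8 without IMSP 2, Nlrc5 without DP 1 or SP 3, H2-T23 without DP 2 or SP 1, H2-Q6 without IMSP 3) and 0 to 1 in IMDP against DP. With the replicate block Psmb8 (adjusted p = 0.0232) joined H2-Q6 in IMDP against IMSP, and H2-T23 (0.0463) and Psmb8 (0.0297) were called in G0M+ against G0M- cells. It changed no other call of a member. The cause was not tested, beside the smaller number of libraries in some fits.

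Of 1001 log2 fold changes of single members under the alternatives, 912 kept direction and side of the threshold, 7 lost and 39 gained a call, and 43 changed sign. With libraries scaled to the same median, which moves all members of a comparison by nearly the same amount, B2m (0.11) and H2-D1 (0.09) in IMDP against IMSP, H2-D1 (0.07) in G0M+ against G0M- cells and Nlrc5 (0.10) in IMDP against DP did so, and H2-K1 (-0.02) in IMDP against IMSP with the copy of highest mean. With H2-Q6 to H2-Q9 summed, H2-Q6 was at -0.15 in DP against SP, 0.00 in IMDP against IMSP and -0.08 in G0M+ against G0M- cells, and with H2-Q8 alone added at -0.02 in DP against SP. With a library left out, values near 0 crossed it. B2m ran from -0.23 to 0.02 in IMSP against SP and from -0.06 to 0.06 in G0M+ against G0M- cells. H2-K1 ran from -0.04 to 0.17 in DP against SP, from -0.15 to 0.11 in IMDP against IMSP and from -0.06 to 0.09 in G0M+ against G0M- cells. H2-D1 ran from -0.01 to 0.04 in DP against SP. H2-T23 ran from -0.08 to 0.36 in IMDP against DP and from -0.01 to 0.43 in IMSP against SP. Tap1 ran from -0.24 to 0.10 in DP against SP and from -0.03 to 0.30 in IMSP against SP, Tap2 from -0.07 to 0.22 in IMDP against DP, and Psmb9 from -0.08 to 0.28 in IMSP against SP. Nlrc5 ran from -0.26 to 0.06 in IMDP against DP and from -0.31 to 0.14 in IMSP against SP.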
